A study of Homo sapiens with 48 samples.

Results

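The comparison described here set DLD-1 cells in which CNOT4 carries an auxin-inducible degron (CNOT4-AID) against untagged parental cells after 2 h of auxin, and rests on 4 of the 48 RNA-seq libraries of the series, 2 from each line. The libraries were chosen by their labels as the start of a triptolide time course: both lines had 1 mM auxin for 2 h and no triptolide. DLD-1 is a human colorectal cancer line. Per the labels, parental, CNOT4-AID and CNOT1-AID cells all carry TIR1, the plant receptor that hands degron-tagged proteins to the proteasome when auxin is present, and the degron was placed at the genomic CNOT4 or CNOT1 locus. A separate steady-state experiment measured the same lines at 8 h and at 24 h, each with 1 mM auxin or without it, in 2 libraries a group. In the triptolide experiment, 1 µM triptolide followed the 2 h of auxin for up to 12 h. Every 2 h library had auxin and none was untreated. A difference between the lines at 2 h thus holds both what separates them without auxin and any difference in their responses to auxin. An effect of auxin that both lines share does not enter it. The untreated difference between the lines, from 8 untreated steady-state libraries, is therefore given beside the main results. The labels do not say whether a tagged line is 1 clone, or whether the 2 libraries of a group came from separate cultures. The p-values therefore reflect only a spread between libraries, which may be technical. For the 2 h comparison that spread was estimated over all 24 libraries of the triptolide experiment. Every other pair there lay closer together than the parental 2 h pair.

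CNOT4 is a RING-type E3 ubiquitin ligase. It was found as a subunit of CCR4-NOT, the complex that trims poly(A) tails and so starts the decay of mRNAs, although in human cells it is only loosely bound to the complex. CNOT1 is the scaffold that holds the other subunits together. CNOT4 is known for ubiquitinating ribosomal proteins and factors at stalled ribosomes. Auxin acts on the tagged protein, so RNA levels do not measure the depletion, and no protein was measured in the files used here.

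The 4 libraries held 18216427 and 21375384 counts (parental) and 20743787 and 20288173 counts (CNOT4-AID). Levels are given as CPM (counts scaled to the library total) after TMM scaling, in the order parental replicates 1 and 2, then CNOT4-AID replicates 1 and 2. Colon epithelial markers marked all 4 libraries: 13 of 16 averaged at least 1 CPM, with a summed level of 7285 to 8914 CPM in parental and 7536 to 8441 CPM in CNOT4-AID libraries, and CDX1 was at 0. No fibroblast marker of 8 and no blood marker of 8 reached that level, and COL1A2, COL3A1, DCN, LUM, PTPRC, MS4A1, LYZ and HBB were at 0 in all 4. Of the endothelial and neural markers, VWF (5.06 and 4.52 against 1.94 and 2.39 CPM), TUBB3 (161 and 116 against 93.2 and 100 CPM) and MAP2 (6.49 and 9.36 against 4.59 and 5.23 CPM) were lower in CNOT4-AID cells, and RBFOX3 and NEFL were at 0. All libraries are of the DLD-1 line, so these RNAs need not come from other cell types, and their source was not tested. In bulk RNA, fewer cells of a kind and less RNA per cell cannot be told apart. ERCC spike-in RNA took 1.39% and 1.70% of counts in parental and 1.18% and 1.24% in CNOT4-AID libraries. Mitochondrially encoded RNA took 2.60% and 1.89% in parental and 2.94% and 3.78% in CNOT4-AID libraries.

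The 2 parental libraries stood apart from each other. Over 10467 expressed genes, the SD of the log2 difference between them was 0.554, against 0.12 to 0.29 for the pairs of the other 11 groups of the same experiment, and 471 genes were at least 2-fold apart. The difference ran with GC content (the share of G and C in a transcript): its Spearman correlation with GC over those genes was 0.87, and the median difference went from -0.65 log2 in the 10% of genes poorest in GC to 0.80 in the richest. The CNOT4-AID pair had an SD of 0.29 and a correlation with GC of -0.68. After each library's trend with GC was removed, the SD between the parental libraries was 0.306, still above the 0.115 to 0.229 of the other 11 groups. Many results below depended on which parental library was kept or on this correction.

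**Figure D1:**
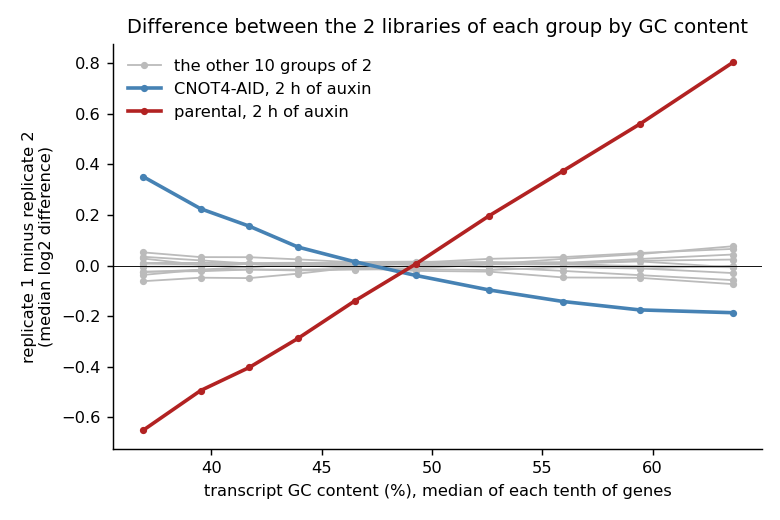
Replicate 1 minus replicate 2 (median log2 difference, vertical axis) in 10 equal bins of 10467 genes ordered by transcript GC content (percent, horizontal axis), 1 line for each of the 12 groups of 2 libraries of the triptolide experiment. The parental 2 h pair (red) runs from -0.65 to 0.80, the CNOT4-AID 2 h pair (blue) slopes the other way, and the other 10 groups (grey) stay nearer to 0.

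CNOT4 mRNA was higher in CNOT4-AID cells. CNOT4 (ENSG00000080802.18, chr7:135361795-135510127 on GRCh38, minus strand) stood at 24.4 and 33.7 CPM in parental and 47.1 and 52.5 CPM in CNOT4-AID libraries. The groups did not overlap, and the difference was 0.77 ± 0.117 (log2, SE; edgeR adjusted p = 0.000169). Untreated cells showed a smaller difference in the same direction, 0.37 on the log2(TPM + 0.5) scale (limma adjusted p = 0.000386), and after 3 h of triptolide it was 0.72. CNOT1-AID libraries had 36.4 and 40.0 CPM. Among the other 11 subunits and partners on the CCR4-NOT list, only TNKS1BP1, a large protein that associates with the complex, passed the edgeR test, at 95.3 and 49.6 CPM in parental against 105 and 114 CPM in CNOT4-AID libraries (log2 0.60, adjusted p = 0.0442). It lies on chromosome 11, which is described below, and its call was lost when libraries were left out. The scaffold CNOT1 stood at 392 and 453 CPM in parental and 418 and 466 CPM in CNOT4-AID libraries, and the deadenylase CNOT7 at 122 and 195 against 169 and 148 CPM. The 10 members that did not pass lay between -0.08 and 0.37 log2. Of the 12 on the list, 3 were higher and 3 lower without parental replicate 1, and 7 higher and 0 lower without parental replicate 2.

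After 2 h of auxin, 2009 of 16858 genes differed between the lines at an edgeR adjusted p below 0.05 (11.9%): 1320 were higher in CNOT4-AID (7.83%) and 689 lower (4.09%). Without scaling beyond library totals the split was 908 higher and 984 lower. With the GC correction 3636 genes were called (21.6%), 1956 higher (11.6%) and 1680 lower (9.97%), and these held 1938 of the 2009 in the same direction. Leaving out parental replicate 1 or 2 gave 4735 or 6130 calls, leaving out CNOT4-AID replicate 1 or 2 gave 1600 or 1327, and 836 of the 2009 genes passed in all 4 of these fits. A fit of the 4 libraries alone called 112 genes, 111 of them among the 2009. Scaling to the ERCC RNAs moved the median of all genes from 0.03 to 0.31 log2 and left 663 calls.

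Among called genes with a mean of at least 5 CPM over the 4 libraries and no overlap between the lines, passing over clone names, pseudogenes and small RNAs, the largest rises at 2 h were those of BAHCC1, NFIA and CD44. BAHCC1, a chromatin-associated protein with a BAH domain, stood at 2.21 and 1.08 CPM in parental and 40.4 and 43.9 CPM in CNOT4-AID libraries, a difference of 4.71 ± 0.240 (log2, SE; edgeR adjusted p = 2.63e-10). NFIA, a transcription factor of the nuclear factor I family, stood at 1.82 and 1.68 against 24.1 and 21.6 CPM (log2 3.71 ± 0.139). CD44, the hyaluronan receptor, stood at 10.9 and 12.5 against 84.8 and 87.2 CPM (log2 2.88 ± 0.113). That the lines do not overlap in these 3 was a condition of naming them. The same genes were higher in untreated CNOT4-AID cells: in the 4 untreated parental libraries CD44 had 7.09, 7.72, 6.82 and 6.34 TPM (length-corrected levels, as deposited), and in the 4 untreated CNOT4-AID libraries 19.1, 18.9, 19.7 and 21.0 TPM. The untreated differences were 1.69 for CD44, 1.27 for BAHCC1 and 1.80 for NFIA on the log2(TPM + 0.5) scale, which understates the change of low genes such as the last 2.

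Of the 12 largest rises named by rule, 9 were also called higher in untreated cells. Besides the 3 genes above these were IL1RN, the interleukin-1 receptor antagonist (2.06 and 2.56 against 11.3 and 13.7 CPM, log2 2.42), MUC5AC, a gel-forming mucin (23.4 and 9.60 against 63.9 and 82.5 CPM, log2 2.16), the arylsulfatase ARSJ (2.12), the secreted galectin-binding glycoprotein LGALS3BP (1.96), the YAP target ANKRD1 (1.92) and the microtubule cross-linker MTCL1 (1.82). For MUC5AC the parental libraries alone differed more than 2-fold. BDNF and CCDC80, also among the 12, are described with the genes not called in untreated cells. CNOT1-AID libraries had 22.3 and 19.7 CPM of NFIA, near the CNOT4-AID levels, whereas for CD44 they had 21.98 and 17.9 CPM and for BAHCC1 10.7 and 8.91 CPM.

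**Figure D2:**
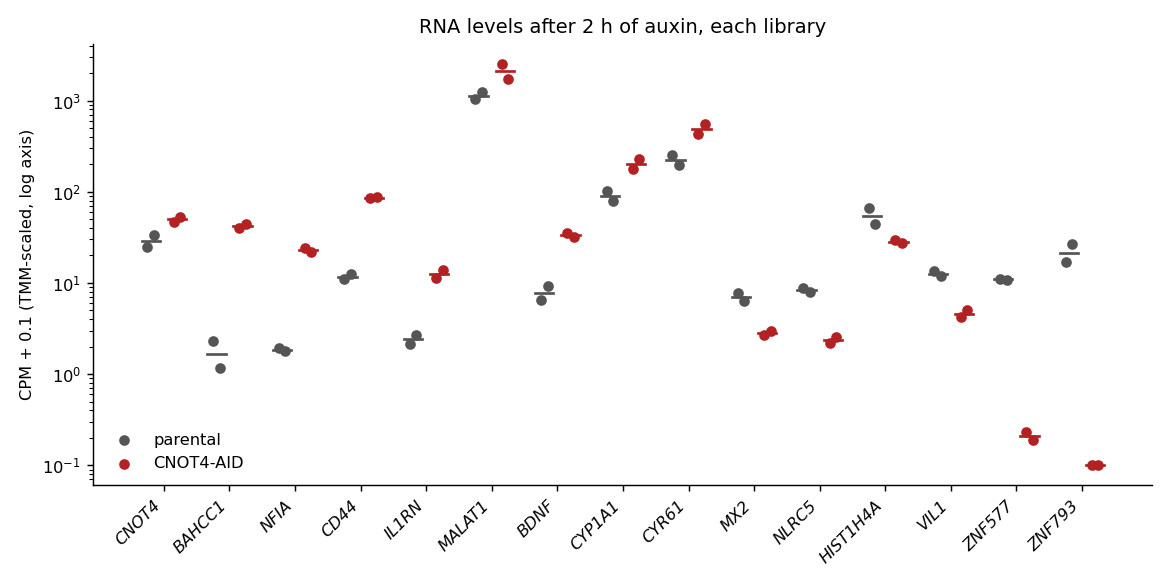
Level of 15 named genes in each of the 4 libraries (points; CPM + 0.1 after TMM scaling, logarithmic axis) for parental (grey) and CNOT4-AID (red) cells after 2 h of auxin, with a bar at the geometric mean of each pair. BAHCC1, NFIA, CD44 and IL1RN separate upwards and ZNF577 and ZNF793 downwards. In every gene shown the 2 lines do not overlap, which the rule for naming the largest differences required.

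Genes of chromosome 11 were higher in CNOT4-AID cells along the whole chromosome, a pattern looked for after the chromosome medians had been seen. Of 941 chromosome 11 genes tested, 350 were higher (37.2%) and 12 lower, against 6.09% higher on all other chromosomes together and 3.18% to 9.20% on each of 21 others (leaving aside chromosome 19). Their median difference was 0.39 log2, or 1.31-fold, while the median over the other autosomes was 0.02, and 83.1% of them lay above 0 against 52.8% elsewhere. They made up 26.5% of all genes called higher. The shift was spread over the chromosome: in each of its 14 windows of 10 Mb the median was positive. It ran from 0.25 to 0.58 in the 12 windows with at least 20 genes, and the highest of 250 such windows elsewhere was 0.19. In untreated cells the medians of the 14 windows ran from -0.05 to 0.15, so not every window was above 0 there.

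The chromosome 11 median stayed above that of the other autosomes in the fits that were tried. With the GC correction the median was 0.37, and with each of the 4 libraries left out in turn it ran from 0.35 to 0.42. With ERCC scaling it was 0.66 beside 0.30 for the other autosomes. After 3 h of triptolide, in 4 other libraries, it was 0.36, with 314 genes called higher, and against CNOT1-AID libraries at 2 h it was 0.32. In untreated cells the median was 0.08, with 212 of 855 chromosome 11 genes higher (24.8%) against 9.60% elsewhere. It was 0.08 at 8 h and at 24 h taken alone and 0.08 between the lines after 8 h of auxin, while the response to 8 h of auxin within CNOT4-AID cells had a chromosome 11 median of 0.00. The 2 experiments were deposited as separately normalised tables, so the difference between 0.39 and 0.08 was not tested.

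**Figure D3:**
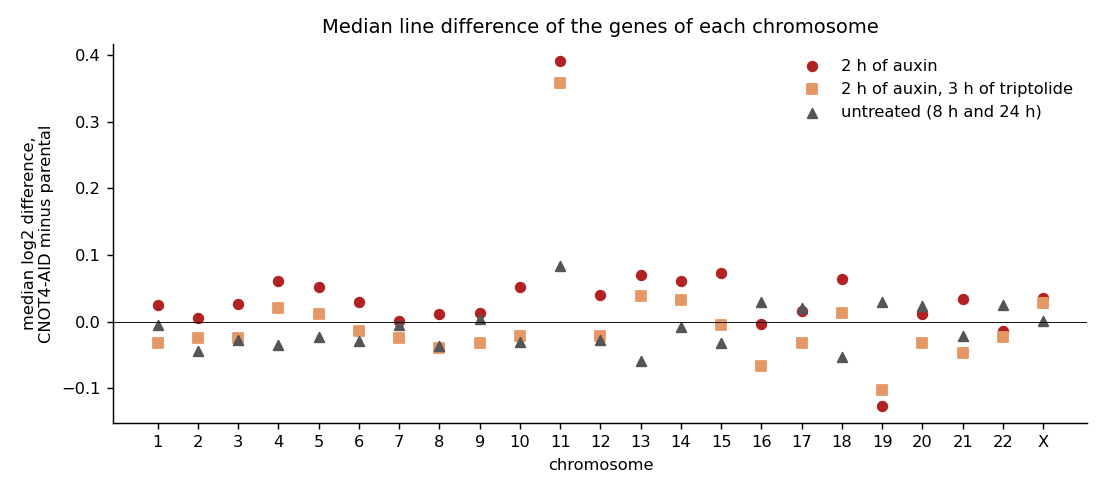
Median CNOT4-AID minus parental difference (log2, vertical axis) of the genes of each chromosome (horizontal axis) after 2 h of auxin (circles), after 2 h of auxin and 3 h of triptolide (squares) and in untreated cells (triangles). Chromosome 11 stands at 0.39, 0.36 and 0.08, and chromosome 19 at -0.13 after 2 h of auxin.

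Single libraries showed the same. The median level of chromosome 11 genes relative to other autosomes, each gene centred on its mean over the experiment, was 0.17 to 0.29 (median 0.23) in the 8 CNOT4-AID libraries of the triptolide experiment, -0.20 to -0.06 in the 8 parental and -0.12 to -0.07 in the 8 CNOT1-AID libraries. In the steady-state experiment the 8 CNOT4-AID libraries stood at 0.026 to 0.084, the 8 parental at -0.059 to -0.016 and the 8 CNOT1-AID at -0.053 to 0.0044. CNOT4-AID libraries lay above the libraries of the other lines in both experiments, by less in the steady-state one. No DNA was measured, and whether the copy number of chromosome 11 differs between the lines or between the cells of the 2 experiments was not tested. CD44, MUC5AC and BDNF lie on chromosome 11, and their differences of 2.09 to 2.88 log2 are far above its median. Off chromosome 11, 1647 of 15917 genes were called (10.3%), 970 higher (6.09%) and 677 lower (4.25%).

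**Figure D4:**
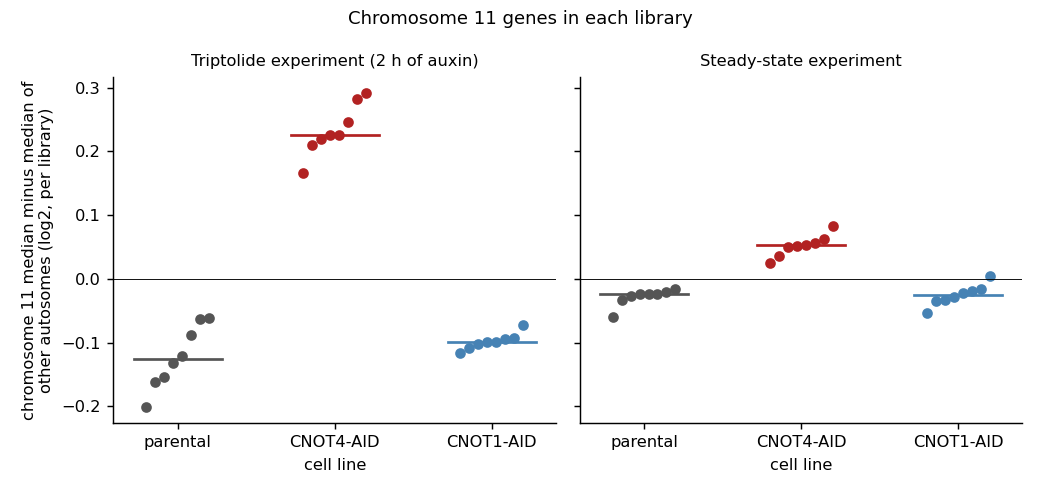
Chromosome 11 median minus the median of the other autosomes in each library (points; log2, vertical axis; bars are medians) for the 8 libraries of each line (horizontal axis) in the triptolide experiment (left) and the steady-state experiment (right). CNOT4-AID libraries lie at 0.17 to 0.29 on the left and 0.026 to 0.084 on the right, above the other lines in both.

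Under the rule for naming (at least 5 CPM, no overlap, no clone names, pseudogenes or small RNAs), the strongest falls at 2 h were all in zinc finger genes of chromosome 19. Most of these genes code for C2H2 zinc finger proteins, many with a KRAB domain, a family of DNA-binding repressors that sits in clusters on this chromosome. All 12 of the largest falls named by rule belonged to it. ZNF793 (chr19:37506939-37548762) stood at 16.8 and 26.8 CPM in parental libraries and at 0 in both CNOT4-AID libraries, at least 326-fold lower (against 3 counts over the group). By the same bound ZNF570 was at least 322-fold, ZNF845 183-fold, ZFP82 161-fold, ZNF430 156-fold and ZFP28 151-fold lower. ZNF493 had 2 counts in CNOT4-AID against 1025 in parental libraries, a ratio of 507 (95% interval 140.0 to 4192, counting error only). ZNF540 stood at 23.9 and 38.5 against 0.221 and 0.0451 CPM, HKR1 at 24.8 and 23.4 against 0.618 and 0.586 CPM, and ZNF577, ZNF571 and ZNF432 were lower by -6.53, -5.06 and -5.04 log2. All 12 kept their call without each of the 4 libraries.

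These 12 genes were also called lower in untreated CNOT4-AID cells, and their levels were low in the other tagged line. In the 4 untreated parental libraries ZNF793 had 6.12, 5.54, 5.78 and 5.18 TPM, and in the 4 untreated CNOT4-AID libraries 0.04, 0.04, 0.02 and 0.01 TPM. CNOT1-AID libraries at 2 h had 0 and 0.0474 CPM of ZNF793 and 0.135 and 0.0948 CPM of ZNF540, and the highest of the 12 there was ZNF432 with 2.25 and 2.61 CPM. Over the family, grouped by name and chromosome after values had been seen, 91 of 185 genes tested were lower (49.2%, against 4.09% of all genes) and 1 was higher (ZNF552, log2 0.55). The median over the 185 was -0.71. Of the 91, 81 were tested in untreated cells and 75 of those were called lower there, 81 were called lower after 3 h of triptolide and 90 with the GC correction. In 83 of the 91 both CNOT1-AID libraries lay below both parental ones. The 91 were called against the same parental libraries, which favours such a count, and the share over other genes was not counted. The median level of the 91 was 11.01 CPM in parental, 2.32 CPM in CNOT4-AID and 2.43 CPM in CNOT1-AID cells. They supplied 54 of the 145 genes called at least 4-fold lower. Zinc finger genes of other chromosomes were called 19 higher and 20 lower of 239 at 2 h, but 6 higher and 67 lower of 231 in untreated cells and 11 higher and 39 lower after 3 h of triptolide.

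The falls were grouped by position. All 7 tested zinc finger genes of chr19:21020620-21767628 were lower, all 5 of chr19:23221599-24129961 and 25 of 27 of chr19:36182060-37817300, where ZNF146 and ZNF565 did not pass. In chr19:51571298-53580269 the count was 19 of 30, in chr19:11483427-12640098 10 of 22, in chr19:43525497-45076588 7 of 20 and in chr19:55476332-58481230 12 of 44. The median of all 1099 chromosome 19 genes was -0.13, or -0.08 without the zinc finger genes, and 0.13 with ERCC scaling. In untreated cells it was 0.03, or 0.06 without the zinc finger genes. ZNF146 and ZNF565 were called lower in untreated CNOT4-AID cells, by -0.42 and -0.40 log2. ZNF565 was also called lower at 2 h with the GC correction (-0.66 log2). Genes of this family resemble each other, and how reads shared by near copies were counted is not stated.

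The promoters of 3 genes are shown because these genes lie in the clusters above and differed in outcome at 2 h. ZNF793 and ZNF845 were at 0 in both CNOT4-AID libraries, and ZNF146, elsewhere in the cluster of ZNF793, did not pass. In untreated cells ZNF146 was called lower in CNOT4-AID. Each run is 300 bases, 250 before and 50 after the RefSeq start on GRCh38.p14, plus strand, with every CG dinucleotide, the site of DNA methylation, in capitals. DNA methylation was not measured in the files used here.
ZNF793, chr19:37506689-37506988: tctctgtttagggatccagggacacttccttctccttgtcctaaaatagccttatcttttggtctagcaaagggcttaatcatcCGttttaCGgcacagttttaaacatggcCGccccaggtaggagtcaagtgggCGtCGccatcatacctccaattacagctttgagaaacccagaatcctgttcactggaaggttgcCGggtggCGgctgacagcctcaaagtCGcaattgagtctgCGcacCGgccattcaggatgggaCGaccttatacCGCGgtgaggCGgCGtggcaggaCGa
ZNF845, chr19:53333499-53333798: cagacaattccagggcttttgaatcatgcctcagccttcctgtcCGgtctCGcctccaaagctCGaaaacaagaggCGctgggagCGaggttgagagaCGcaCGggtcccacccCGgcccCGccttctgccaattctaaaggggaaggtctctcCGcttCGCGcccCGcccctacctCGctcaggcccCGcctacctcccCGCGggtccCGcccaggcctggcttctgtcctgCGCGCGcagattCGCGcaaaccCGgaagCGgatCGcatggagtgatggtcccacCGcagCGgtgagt
ZNF146, chr19:36214856-36215155: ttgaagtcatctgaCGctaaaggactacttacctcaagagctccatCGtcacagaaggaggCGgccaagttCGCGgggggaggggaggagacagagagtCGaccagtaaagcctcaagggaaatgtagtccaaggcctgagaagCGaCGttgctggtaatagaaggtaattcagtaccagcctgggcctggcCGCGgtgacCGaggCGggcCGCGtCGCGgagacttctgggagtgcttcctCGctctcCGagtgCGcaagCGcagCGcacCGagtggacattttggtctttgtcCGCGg
They hold 16, 28 and 24 CG. Of the 185 genes, 164 matched the promoter table. The 81 matched genes that were lower had a median of 20 CG (quartiles 14 to 25) and the 83 others 21 (quartiles 17.5 to 25), beside 14 (4 to 27) for all 27305 matched genes of the table. At least 1 CG was found in 96.0% of all promoters of this length. The quartile ranges of the genes that fell and of those that did not pass overlap.

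The 2 h difference was next set against the untreated one, gene by gene. Untreated cells differed at 3017 of 14921 genes (20.2%; limma adjusted p below 0.05), 1563 higher (10.5%) and 1454 lower (9.74%) in CNOT4-AID, which became 1658 and 497 with ERCC scaling. With TPM as deposited, where the median of all genes was -0.25 log2, the split was 285 and 8397. Of 14115 genes tested in both experiments, 1839 were called at 2 h. Of these, 649 were called in the same direction without auxin, which is 35.3% of the 2 h calls and 21.8% of the 2975 untreated calls. Another 88 were called in the opposite direction and 1102 were not called, 994 of them with an untreated difference under 0.25 log2 in size. Among the 408 genes that differed at least 2-fold at 2 h, 232 were called the same way, 8 the opposite way and 168 not at all. The correlation of both differences over 10451 expressed genes, which share no library, was 0.40 (Pearson) and 0.16 (Spearman).

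The division depended on the parental libraries. CNOT4-AID minus parental replicate 1 alone had a Spearman correlation with GC content of -0.67 and a Pearson correlation with the untreated difference of 0.14, and minus parental replicate 2 alone 0.55 and 0.50. Without parental replicate 1, 4524 genes divided into 1265 called the same way, 157 the opposite way and 3102 not called. Without parental replicate 2, 5826 genes divided into 770, 654 and 4402. With the GC correction, 3422 genes divided into 1079, 215 and 2128. With ERCC scaling of both tables, 542 genes divided into 268, 12 and 262. A majority of the 2 h calls was not called in untreated cells in each of these but the last, where it was 48.3%. A gene that was not called without auxin was not shown to be equal there, and the change from the untreated to the 2 h difference was not tested, because the tables were normalised separately.

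**Figure D5:**
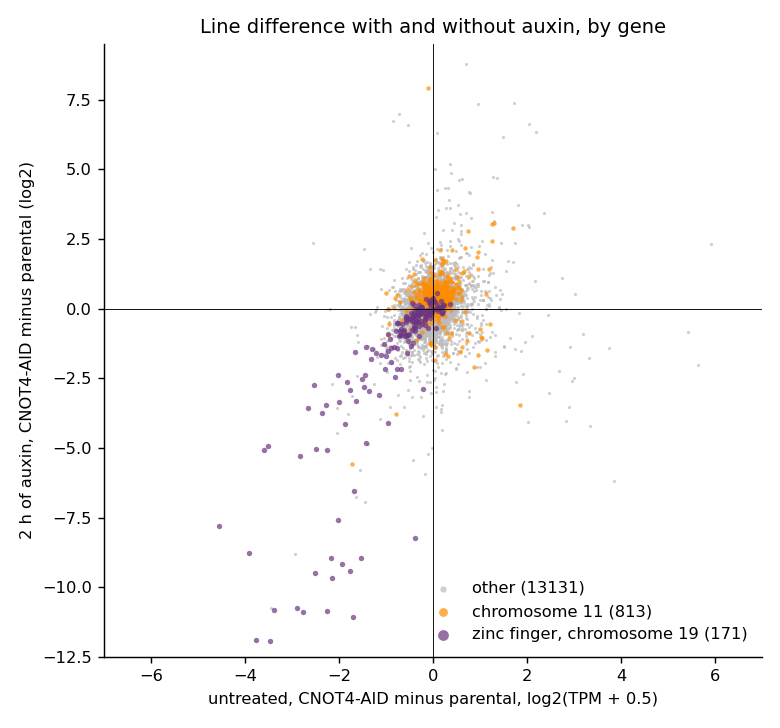
CNOT4-AID minus parental difference after 2 h of auxin (log2, vertical axis) against the untreated difference (log2(TPM + 0.5), horizontal axis), 1 point for each of 14115 genes tested in both experiments. Zinc finger genes of chromosome 19 (purple) reach far down on both axes. Most chromosome 11 genes (orange) lie above 0 on the vertical axis (83.1% of the 941 tested at 2 h). The chromosome 11 medians were 0.39 (2 h) and 0.08 (untreated) over the genes tested in each experiment.

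Chromosome 11 took part in this division. Of its 340 higher genes tested in both experiments, 126 were called the same way without auxin, 8 the opposite way and 206 not. Those 206 had a median difference of 0.59 log2 at 2 h and 0.05 untreated. On the other chromosomes 903 higher genes divided into 262, 59 and 582, and 586 lower genes into 257, 21 and 308.

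Among genes higher at 2 h and not called without auxin, 4 of the 10 largest by rule lie on chromosome 11. BDNF, a neurotrophin, stood at 6.44 and 9.16 CPM in parental and 35.2 and 31.6 CPM in CNOT4-AID libraries, a difference of 2.09 ± 0.147 (log2, SE; edgeR adjusted p = 2.5e-08). Untreated, it had 5.04, 4.52, 4.93 and 4.24 TPM in parental and 4.81, 4.34, 3.88 and 4.35 TPM in CNOT4-AID libraries, which overlap. The mean of these deposited values is lower in CNOT4-AID cells, whereas after TMM scaling the fitted difference was 0.15 (limma adjusted p = 0.17). CNOT1-AID libraries at 2 h had 13.02 and 11.8 CPM. The others on this chromosome were CDC42EP2, an effector of the GTPase CDC42 (log2 1.78), the muscarinic receptor CHRM1 (1.61) and the sialic acid esterase SIAE (1.49).

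Off chromosome 11, the secreted protein CCDC80 stood at 2.60 and 2.68 against 10.4 and 10.2 CPM (log2 1.96). Its untreated difference was -0.15, and after 3 h of triptolide it was 1.44. No overlap between the lines at 2 h was a condition of naming it. The phospholipase PLCB4 (1.47), SKIDA1 (1.47), the lysine-degrading enzyme AASS (1.41) and the Wnt ligand WNT7B (1.40) were also among the 10. All 10 but CDC42EP2 kept their call without each library.

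Among the 10 falls named by rule that were not called without auxin and differed by under 0.25 log2 there, the largest that kept its call without each of the 4 libraries was that of SH3PXD2A. SH3PXD2A, the scaffold of podosomes and invadopodia, stood at 12.8 and 9.16 CPM in parental and 3.31 and 3.78 CPM in CNOT4-AID libraries (log2 -1.62, edgeR adjusted p = 9.46e-07). Its untreated difference was -0.17, and CNOT1-AID libraries had 22.4 and 24.1 CPM, above the parental ones. PCDH1, a protocadherin, differed by -1.20, the mitochondrial sulfurtransferase TST by -1.04, the autophagy protein TECPR1 by -0.98, the metalloreductase STEAP4 by -0.92 and the histone genes HIST1H4A and HIST2H3D by -0.98 and -0.84. CCNO, a cyclin family member (-0.88), and the readthrough genes TMEM189-UBE2V1 and NME1-NME2 were also named by rule, but lost their call when libraries were left out, and readthrough genes overlap the genes they join.

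Of the 88 genes called in opposite directions, those named by rule are the 3 largest each way with at least 5 CPM and no overlap between the lines. PRSS2, a trypsinogen with close paralogs, stood at 12.2 and 9.32 CPM in parental and 2.03 and 2.88 CPM in CNOT4-AID libraries (log2 -2.12, edgeR adjusted p = 2.17e-07). Untreated, it was higher in CNOT4-AID cells by 0.49 (limma adjusted p = 0.000787), and after 8 h of auxin by 0.44. The NAD synthesis enzyme QPRT (-0.85 at 2 h, 0.71 untreated) and CXXC5, a CXXC-type zinc finger protein (-0.69 and 0.13), had the same pattern, QPRT losing its 2 h call when libraries were left out. The vesicle traffic protein SYTL2 (0.87 and -0.38, on chromosome 11), the glutathione transferase GSTM4 (0.90 and -0.17) and the transcription factor BCL11A (1.10 and -0.33) were higher at 2 h and lower untreated. Claudin 2 (CLDN2), a tight junction channel, did the same at 0.70 and -1.12.

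Triptolide stops transcription from starting, so libraries taken 3 h into it still hold the more stable RNAs made before. At that time 1709 of 16858 genes differed between CNOT4-AID and parental cells (10.1%), 967 higher (5.74%) and 742 lower (4.40%), from 4 libraries not used at 2 h. The split was 625 and 1333 with library totals alone and 114 and 218 with ERCC scaling. The calls included 1103 of the 2009 genes called at 2 h in the same direction and 0 in the opposite one. The correlation of both differences over 10467 genes was 0.79 (Pearson) and 0.67 (Spearman). BAHCC1 had 1.79 and 2.05 CPM in parental and 60.5 and 65.7 CPM in CNOT4-AID libraries after triptolide. CD44 had 13.1 and 12.5 against 94.7 and 94.9 CPM, and ZNF793 10.9 and 10.2 against 0 in both. BDNF stood at 1.79 and 1.88 CPM in parental and 5.84 and 5.52 CPM in CNOT4-AID libraries, with a difference of 1.63. The 3 h pairs had an SD of 0.175 (parental) and 0.161 (CNOT4-AID) between replicates.

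CNOT1-AID cells at 2 h differed from CNOT4-AID cells at 2339 genes (13.9%), in a comparison that shares the CNOT4-AID libraries with the one against parental cells. Of these, 1112 were higher in CNOT4-AID (6.60%) and 1227 lower (7.28%), or 153 and 334 with ERCC scaling. CD44 was higher in CNOT4-AID by 2.11 log2 and BAHCC1 by 2.10, PRSS2 was lower by -2.84, and NFIA differed by 0.12 (edgeR adjusted p = 0.52). CYP1A1, a cytochrome P450 induced through the aryl hydrocarbon receptor, was higher by 1.33.

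The steady-state experiment also measured auxin directly, at 8 h. In CNOT4-AID cells 43 of 14921 genes differed between 8 h of auxin and no auxin (0.288%; limma adjusted p below 0.05), 36 higher (0.241%) and 7 lower (0.0469%; 92 and 40 with the GC correction, 3 and 3 with ERCC scaling). Of these, 42 were tested at 2 h, where 10 were called in the same direction and 2, CYR61 and MLPH, in the opposite one. The response differed between CNOT4-AID and parental cells at 2 genes (0.0134%), both small RNA loci not tested at 2 h, and at 1061 genes at an unadjusted p below 0.05. As both loci lie outside the 2 h comparison, no call could fall among the 1102 genes called at 2 h but not untreated. Of those 1102, 48.6% had the same sign in this test as at 2 h, against 48.5% of all 14115. The untreated 8 h libraries that helped to choose the 1102 also enter this test. After 8 h of auxin the 2 lines differed at 1964 genes (13.2%), 1070 higher (7.17%) and 894 lower (5.99%) in CNOT4-AID (819 and 266 with ERCC scaling). By that measure, 83 of the 1102 were called in the direction seen at 2 h and 15 in the other.

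Gene lists are given next as counts of members called, beside 7.83% of all genes higher and 4.09% lower at 2 h and 10.5% and 9.74% in untreated cells. Without parental replicate 1 the 2 h fit called 2589 genes higher and 2146 lower, and without parental replicate 2 3599 and 2531. In several lists the balance of higher and lower members differed between those fits.

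Of the aryl hydrocarbon receptor genes, which answer to planar aromatic and indole compounds, 4 of 14 were higher at 2 h and 0 lower, with a median of 0.28 log2 beside 0.03 for all genes. CYP1A1 stood at 101 and 79.3 CPM in parental and 176 and 231 CPM in CNOT4-AID libraries (log2 1.18 ± 0.142, edgeR adjusted p = 1.61e-05), CYP1B1, a related P450, at 82.5 and 91.5 against 127 and 118 CPM, the quinone reductase NQO1 at 76.1 and 101 against 130 and 123 CPM, and the receptor's partner ARNT at 30.4 and 32.1 against 36.4 and 43.9 CPM. In the steady-state experiment auxin raised CYP1A1 in CNOT4-AID cells, from 2.49 and 2.42 to 5.62 and 5.25 TPM at 8 h (log2 1.17, limma adjusted p = 0.00161). Parental cells went from 2.57 and 2.28 to 5.24 and 4.93 TPM, and the 2 responses differed by 0.33 (adjusted p = 0.795). The untreated lines differed by 0.22 (adjusted p = 0.132). Over the list, 4 of 12 were higher and 1 lower in untreated cells.

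Targets of YAP and TAZ, coactivators that respond to cell density and tension, were higher for 8 of 19 genes and lower for 1, with a median of 0.20, and the same counts were found with the GC correction. CYR61, a secreted matricellular protein, stood at 254 and 198 CPM in parental and 435 and 552 CPM in CNOT4-AID libraries (log2 1.13), CTGF, a relative of it, at 19.1 and 20.2 against 29.1 and 33.5 CPM, and ANKRD1 at 2.02 and 3.04 against 9.84 and 9.46 CPM. IGFBP3, an IGF-binding protein, was the 1 that fell, from 2.41 and 1.68 to 0.750 and 0.856 CPM. Of the 8 higher genes, TEAD1 and ARHGEF17 lie on chromosome 11. Untreated, 3 of 17 were higher and 3 lower. CYR61 fell within CNOT4-AID cells over 8 h of auxin, from 87.1 and 81.7 to 49.9 and 53.7 TPM (log2 -0.55). Parental cells went from 80.5 and 71.7 to 59.4 and 60.6 TPM, and the 2 responses differed by -0.11 (limma adjusted p = 0.888).

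Immediate early genes, which respond to stimuli without new protein synthesis, were higher for 8 of 55 and lower for 1. They included CYR61, CTGF, the AP-1 subunit FOSL1 on chromosome 11 (113 and 61.1 against 137 and 172 CPM), the phosphatase subunit PPP1R15A (138 and 90.8 against 194 and 238 CPM) and the G-protein regulator RGS2 (0.885 and 1.12 against 2.74 and 3.51 CPM). For FOSL1 the parental libraries again lay further apart than the CNOT4-AID ones. Over the list, 16 of 54 were higher and 7 lower in untreated cells. At 2 h the counts were 17 higher and 3 lower without parental replicate 1 (median 0.15) and 13 higher and 11 lower without parental replicate 2 (median -0.12).

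Replication-dependent histone genes, whose mRNAs end in a stem-loop and carry no poly(A) tail, were lower for 14 of 55 and higher for 2, with a median of -0.34. HIST1H4A stood at 66.4 and 44.6 CPM in parental and 29.2 and 27.1 CPM in CNOT4-AID libraries, HIST1H4B at 172 and 149 against 102 and 70.8 CPM and HIST1H2AJ at 134 and 95.6 against 45.9 and 70.6 CPM. With the GC correction 19 were lower and 2 higher, and with ERCC scaling 1 was lower and the median was -0.09. The size of the histone median depended on the parental library, at -0.20 without parental replicate 1 and -0.49 without parental replicate 2. After 3 h of triptolide 2 were lower and 3 higher, and in untreated cells 9 lower and 4 higher. These genes have near-identical copies, so counts of single copies are uncertain. Of the replication and mitosis genes, 2 of 45 G1/S genes and 6 of 55 G2/M genes were higher at 2 h and none lower, among them CLSPN, a replication checkpoint adaptor (47.2 and 47.0 against 81.8 and 84.6 CPM), and the kinetochore protein CENPF (186 and 202 against 305 and 266 CPM). These counts lie near the 7.83% of all genes and depended on the parental library. Without parental replicate 1, 7 G1/S genes were higher and 8 lower and 9 G2/M genes higher and 13 lower, and without parental replicate 2 the counts were 16 and 9 and 29 and 7. With the GC correction they were 4 and 8 (G1/S) and 12 and 4 (G2/M), and in untreated cells 5 and 5, and 10 and 2.

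Mitochondrially encoded mRNAs were higher for 8 of 13, with a median of 0.84, such as MT-ND4, a subunit of respiratory complex I, at 3642 and 1986 CPM in parental and 4258 and 5846 CPM in CNOT4-AID libraries. The libraries of each line also lay apart from each other for this gene, and 2 of 13 passed with the GC correction. Without parental replicate 1 or 2, 12 or 2 were higher. In untreated cells 0 of 13 differed (median 0.13), while 10 of 13 were higher between the lines after 8 h of auxin (median 0.65) and 4 of 13 after 3 h of triptolide (median 0.70). For the response to 8 h of auxin within CNOT4-AID cells, 0 of 13 passed (median 0.42). The difference of that response from the parental one passed for 0 of 13 (median 0.37). Nuclear-encoded genes of oxidative phosphorylation were higher for 4 of 76, 2 of them on chromosome 11, and lower for 1, against 22 higher and 1 lower of 76 in untreated cells.

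Lists close to the known work of CNOT4 held 2 calls of 11, 5 of 46 and 3 of 29, beside 11.9% of all genes. In untreated cells they held 1 of 11, 7 of 46 and 4 of 29. Of 11 partners and substrates, the nascent-chain factor BTF3 was higher (315 and 338 against 374 and 413 CPM) and the ribosomal protein RPS7 lower (594 and 630 against 509 and 474 CPM). Of 46 deadenylation and decapping genes 4 were higher and 1 lower. The helicase DDX6 and its partner PATL1 lie on chromosome 11, and PATL1 stood at 112 and 119 against 160 and 185 CPM. EDC3, a decapping enhancer, stood at 85.1 and 80.2 against 108 and 120 CPM, and NANOS1, an RNA-binding repressor that recruits CCR4-NOT, at 80.2 and 63.6 against 46.3 and 46.9 CPM. Of 29 ribosome quality control genes the ribosome rescue factor PELO and the translational repressors GIGYF2 and EIF4E2 were higher, the last from 52.8 and 59.1 to 68.6 and 62.9 CPM. Of 79 cytosolic ribosomal protein genes 4 were higher, 3 of them (RPL27A, RPS3 and RPS25) on chromosome 11, and 1 lower, against 32 higher of 79 in untreated cells and 28 higher of 79 after 3 h of triptolide. Of 46 proteasome genes 1 was higher and 3 lower, against 4 higher and 1 lower in untreated cells.

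Of 29 genes of the ATF4 and unfolded protein response 2 were higher, the amino acid transporter subunit SLC3A2 and the chaperone HYOU1, and both lie on chromosome 11. Of 20 heat shock genes the ER chaperones HSPA5 and HSP90B1 were higher and the co-chaperone DNAJB1 lower. Of 23 p53 targets the cell cycle inhibitor CDKN1A was higher and RRM2B lower. Of 20 NRF2 targets 4 were higher, among them the ferritin light chain FTL (285 and 180 against 404 and 462 CPM), which was also higher untreated by 0.94. Hypoxia and glycolysis genes were called 4 higher and 5 lower of 23, against 6 higher and 1 lower in untreated cells. Of 26 cholesterol genes 3 were lower: EBP, HSD17B7 and INSIG1, which holds back SREBP and stood at 58.2 and 73.9 against 46.0 and 48.3 CPM. EBP was lower by -0.26 and by ERCC scaling differed by 0.01. Of 19 NF-kB targets the subunit NFKB1 was higher and the urokinase receptor PLAUR lower. In untreated cells 8 of 27 ATF4 and unfolded protein response genes were higher and 3 lower, 7 of 20 heat shock genes were higher and 0 lower, 5 of 17 NRF2 targets were higher and 1 lower, and 3 of 16 NF-kB targets were higher and 4 lower.

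Interferon genes were called 2 higher and 2 lower of 29, and MHC class I presentation genes 2 higher and 1 lower of 18. The lower ones included MX2, an interferon-induced GTPase (7.67 and 6.24 against 2.60 and 2.88 CPM, log2 -1.34), and NLRC5, the transactivator of MHC class I genes (8.80 and 7.88 against 2.12 and 2.48 CPM, log2 -1.86). Neither was called in untreated cells, where the differences were 0.18 and -0.30. Untreated, 4 interferon genes were higher and 4 lower of 30, and 1 MHC class I gene was higher and 2 lower of 18.

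Of 14 colon epithelial markers tested 1 was higher (KRT20) and 3 were lower (VIL1, CLDN4 and TSPAN8). VIL1, which codes for the microvillus protein villin, stood at 13.5 and 11.7 CPM in parental and 4.11 and 4.96 CPM in CNOT4-AID libraries (log2 -1.48). KRT20, a keratin of differentiated colon epithelium, stood at 46.3 and 57.8 against 84.1 and 78.6 CPM. In untreated cells 5 of the 14 markers were higher and 0 lower, and the counts were the same between the lines after 8 h of auxin. At 2 h they were 6 higher and 5 lower without parental replicate 1 and 2 and 6 without parental replicate 2. Of 29 junction genes 5 were higher and 2 lower: claudin 1 (CLDN1) rose from 3.15 and 2.28 to 6.93 and 6.22 CPM, while claudin 4 (CLDN4) fell from 222 and 150 to 118 and 113 CPM. With the GC correction 4 junction genes were higher and 7 lower, and in untreated cells 5 and 3. Of 28 integrin and matrix genes 5 were higher and 1 lower, with collagen COL4A1 at 7.03 and 5.32 against 15.1 and 15.9 CPM, laminin LAMC1 at 104 and 101 against 153 and 160 CPM and the integrin ITGB8 at 25.9 and 37.8 against 20.1 and 13.8 CPM. S100P, a calcium-binding protein, rose from 14.8 and 13.5 to 32.8 and 24.2 CPM and was also higher untreated, by 2.17. Of 19 Wnt targets 3 were higher, among them the stem cell marker LGR5, and 1, TNFRSF19, lower. Untreated, 8 of 27 integrin and matrix genes were higher and 7 lower, and 6 of 18 Wnt targets were higher and 1 lower.

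Long nuclear RNAs and snoRNA host genes were higher for 5 of 21 and lower for 0, and 4 of the 5 (MALAT1, NEAT1, KCNQ1OT1 and SNHG1) lie on chromosome 11. MALAT1 stood at 1036 and 1242 CPM in parental and 2514 and 1735 CPM in CNOT4-AID libraries (log2 0.90), and NEAT1, the scaffold of paraspeckles, at 130 and 138 against 244 and 167 CPM. Untreated, MALAT1 differed by 0.08 (limma adjusted p = 0.662) and NEAT1 by 0.24, and 9 of 20 genes of the list were higher and 3 lower. Small nuclear and structured RNAs were lower for 2 of 25: RNU2-1, the U2 spliceosomal RNA, had 1 count in CNOT4-AID against 35 counts in parental libraries, a ratio of 34.6 (95% interval 5.82 to 1406, counting error only), and RNU5B-1 stood at 5.21 and 12.9 against 3.05 and 2.34 CPM. Untreated, 6 of 23 of these small RNAs were higher and 0 lower. These loci have many copies, so their counts are uncertain.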

How the data were processed

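RNA-seq of DLD-1 cells was analysed from 2 deposited tables. Per the labels' protocols, libraries were made from total RNA with a stranded kit and removal of ribosomal RNA, with ERCC spike-in RNA added. Per the submitters' processing notes, reads were handled with featureCounts, SAMtools, RSEM, STAR 2.5.1b and DESeq2 on hg38 (GRCh38); the tool behind each table and the strand setting of the counting are not given in the sources used here.

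The triptolide table holds raw counts as deposited by the authors, for 24 libraries of 18216427 to 26723618 counts. The steady-state table holds TPM as deposited by the authors: its 24 columns sum to 999998.92 to 1000000.81, so the depth behind them is unknown. It had been planned for as counts. All 58721 gene identifiers were found in GENCODE 29.

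Counts were fitted with edgeR 4.0.16 (R 4.3.3; robust quasi-likelihood, TMM, 12 groups of 2, 12 residual degrees of freedom, 16858 genes after its expression filter). TPM were fitted with limma 3.58.1 (trend, robust) on log2(TMM-scaled TPM + 0.5) for 14921 genes with at least 1 TPM in 2 libraries. Calls use a Benjamini-Hochberg adjusted p below 0.05 over all genes tested. The GC correction removed each library's lowess trend (span 0.3) of log2 level with the GC content of the longest transcript, and was chosen after seeing the data. Intervals on ratios of counts are exact (Clopper-Pearson) and, like the floor of 3 counts, cover counting error only. Scripts were tested on simulated data without a GC trend and without a pair as far apart as the parental 2 h pair. That test does not bear on how this pair affects the calls. Alternatives included DESeq2 1.42.0, other scalings and filters, replicate blocks and leaving out each library. Same-numbered replicates did not deviate together (correlation -0.55 at 2 h), so no block was used.

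Genes were named by rule: among called genes with at least 5 CPM and no overlap between the lines, the 12 largest rises and falls, the 10 largest each way not called untreated and under 0.25 log2 there, the 3 largest each way with an opposite untreated call, all CCR4-NOT subunits and up to 4 members of each list. Chromosome 11, the zinc finger family of chromosome 19, ZNF552, ZNF565, ZNF146, MLPH, TEAD1 and ARHGEF17 were chosen after values were seen. A few genes that these rules name are not reported here. Members and lists were chosen with earlier results of these data known. Promoter sequences are from RefSeq (GRCh38.p14). TT-seq, mentioned in the labels, was not analysed here.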

Additional observations from a re-analysis of the deposited data

Results flagged for a closer look

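The response to 8 h of auxin differed between CNOT4-AID and parental cells at 2 loci annotated RF00019, a Y RNA family with many copies, by the limma test of the difference itself (responses in the steady-state experiment, log2(TPM + 0.5)). At the locus chr4:185415973-185416086 the difference was -5.78, and at chr14:58441844-58441992 it was 2.65. Neither locus passed the expression filter of the 2 h comparison, and copies of this family share sequence, so their values are uncertain.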

How the results depend on the processing

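The 2 h count of 2009 genes stayed within 1.5 times with DESeq2 (2031), median-of-ratios scaling (1917), library totals (1892), no filter (2059), a mean of at least 5 CPM (1697), the replicate block over 24 libraries (1865) and genes off chromosome 11 (1647). It was 112 from the 4 libraries alone, 161 from 6, 663 with ERCC scaling, 840 from 4 with the GC correction, and with that correction 3636 from all libraries, 3346 without CNOT4-AID replicate 1, 4068 without parental replicate 1 and 3519 without parental replicate 2. The replicate block gave 3521 with the GC correction and 254 over the 4 libraries, and crossed numbers gave 767. Left-out libraries gave 1327 to 6130. The cause of these moves was not tested.

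The untreated count was 8682 with TPM as deposited, 967 at 8 h alone and 1894 to 3080 with left-out libraries. The lines at 8 h of auxin gave 1085 (ERCC), 11382 (as deposited) and 836 to 1372. The 8 h response gave 6 (ERCC), 132 (GC), 11 (as deposited), 116 (replicate block with GC) and 6 to 86. Its difference between lines gave 5 (GC), 0 at 5 TPM or more (716 at an unadjusted p below 0.05 by limma), 22 unfiltered, 1 with a pseudocount of 0.1 and 1 to 8. The 3 h comparison gave 332 (ERCC), 3491 (GC), 3383 (replicate block with GC) and 865 to 929, and that with CNOT1-AID 487, 4501, 4408 and 1099 to 2061. The 649 genes called alike with and without auxin became 380 (8 h alone), 268 (ERCC), 218 (1.5-fold in both), 1079 (GC) and 442 to 1265. The chromosome 19 median was 0.13 with ERCC. EBP and PSME1 changed sign with ERCC (0.0134 and 0.0062), as did PDIA3 with GC and without parental replicate 2 (-0.00403). Replicate numbers did not pair the samples (correlations -0.55 at 2 h, -0.17 at 3 h, 0.07, -0.06 and -0.04 in steady state), and the block changed no other count of calls by over 1.5 times. With 2 libraries a group, the spread between libraries limits all calls, and depth limits genes of a few counts.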
